A study of Homo sapiens with 8 samples.

Results

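Divergent promoters of protein-coding genes were examined for H3K27ac, a mark of active promoters and enhancers in which lysine 27 of histone H3 is acetylated. A divergent pair was a minus-strand and a plus-strand protein-coding gene of GENCODE release 44 (hg38) whose outermost 5′ ends faced away from each other, lay at most 1 kb apart and had the minus-strand gene on the left. Of 887 such pairs, 727 (82.0%, Wilson 95% interval 79.3 to 84.4) had an H3K27ac peak within 1 kb of either start in at least 1 of 4 libraries and were kept as members. The members named 1402 genes at 676 distinct promoters, because 100 member pairs shared a gene or overlapped another pair. The comparison set was 16555 single promoters, protein-coding starts with no other protein-coding start within 1 kb on either strand. Of these, 7196 (43.5%) had a peak by the same rule.

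The libraries came from pancreatic progenitors (PPs) derived from the established human embryonic stem cell line MEL1, which by the study's methods carried a GFP reporter in the INS gene, and kept in EF6, a medium of DMEM with B27, EGF, bFGF and a TGFβ inhibitor. The control PPs received DMSO and the treated PPs 1 μM I-BET151, an inhibitor of the bromodomains with which BET proteins bind acetylated lysines, in both cases for 7 days. Each group had 2 H3K27ac libraries with peak lists, and the 4 matching input libraries enter only through the authors' peak calling. All cells came from 1 line, and nothing in the labels says that replicates were separate cultures, so the spread between them may be technical. Depth, worked out from the peak statistics, was 7.96 and 9.84 M ChIP reads (M, mega) in DMSO replicates 1 and 2, and 7.76 and 8.04 M in I-BET151 replicates 1 and 2. The corresponding lists held 13606, 14248, 12887 and 12312 peaks, of which 5.67 to 6.10% lay at divergent pairs. Of 10 PP markers, 9 had a peak within 1 kb of the start in all 4 libraries, PDX1, NKX6-1 and SOX9 among them, and PTF1A had none. None of 5 endocrine and none of 3 mesenchymal markers had one, while LIN28A of the 4 pluripotency markers and CDX2 of the 3 hepatic or intestinal markers did in all 4 libraries, and no marker gene belonged to a member pair.

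In a divergent promoter a pair of transcription units starts back to back from 1 stretch of DNA, which usually lies in a CpG island and lacks nucleosomes. RNA polymerase II leaves in both directions, and the acetylated nucleosomes flank the open stretch on either side, inside the bodies of both genes. Such promoters are common among housekeeping genes for DNA repair, mitochondrial function and protein turnover, and some pairs join genes that act in the same pathway. BET proteins bind acetylated histones at promoters and enhancers and help polymerase to move into elongation.

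The stretches between the starts of 10 pairs are shown, 4 of them long-known divergent pairs, 5 of them among the pairs with the largest changes described below, and 1 a histone pair. Each is the hg38 plus strand, 5′ to 3′, between but not including the outermost starts of the genes, with the minus-strand gene (named first) transcribed to the left. Capitals mark matches on either strand to 10 short motifs: the SP/KLF GC box GGGCGG, the NF-Y box CCAAT, the ETS core CCGGAAG, the NRF1 core GCGCATGC, the YY1 core AAGATGGC, the CRE TGACGTCA, the palindrome CTCGCGAG, the E2F core TTTNGCGC, the AP-1 core TGANTCA and the TATA box TATAAA. Matches of different motifs may overlap, and a match is a description of letters, not evidence of binding.
PCNA-CDS2 (chr20:5126627-5126878): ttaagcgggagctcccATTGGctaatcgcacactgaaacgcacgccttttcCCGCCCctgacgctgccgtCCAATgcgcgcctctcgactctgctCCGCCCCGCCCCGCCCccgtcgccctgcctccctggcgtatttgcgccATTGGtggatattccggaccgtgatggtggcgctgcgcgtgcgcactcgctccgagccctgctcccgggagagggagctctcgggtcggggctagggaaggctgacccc
PPAT-PAICS (chr4:56435616-56435740): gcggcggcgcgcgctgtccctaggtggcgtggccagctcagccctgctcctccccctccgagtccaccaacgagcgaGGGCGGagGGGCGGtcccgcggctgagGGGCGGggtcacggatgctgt
TCP1-MRPL18 (chr6:159789704-159789811): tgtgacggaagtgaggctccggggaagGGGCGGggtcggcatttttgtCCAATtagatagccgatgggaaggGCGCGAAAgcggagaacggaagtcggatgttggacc
SIRT3-PSMD13 (chr11:236932-236965): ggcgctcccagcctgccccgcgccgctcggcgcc
YAF2-PPHLN1 (chr12:42238350-42238446): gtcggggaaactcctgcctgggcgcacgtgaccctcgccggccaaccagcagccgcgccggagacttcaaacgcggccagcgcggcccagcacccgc
LRRC40-SRSF11 (chr1:70205580-70205681): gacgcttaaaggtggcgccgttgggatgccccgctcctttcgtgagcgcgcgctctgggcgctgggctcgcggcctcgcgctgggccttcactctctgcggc
P3H4-FKBP10 (chr17:41812605-41812679): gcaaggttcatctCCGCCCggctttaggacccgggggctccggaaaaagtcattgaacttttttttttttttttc
KCTD21-USP35 (chr11:78188627-78188811): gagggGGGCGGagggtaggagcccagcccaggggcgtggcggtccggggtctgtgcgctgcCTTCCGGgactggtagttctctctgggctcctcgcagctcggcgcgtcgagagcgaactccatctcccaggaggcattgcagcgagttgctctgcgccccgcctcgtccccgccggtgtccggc
HDAC3-RELL2 (chr5:141636850-141636949): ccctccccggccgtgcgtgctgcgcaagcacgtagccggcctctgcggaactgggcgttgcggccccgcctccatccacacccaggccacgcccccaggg
H2BC4-H2AC6 (chr6:26123927-26124144): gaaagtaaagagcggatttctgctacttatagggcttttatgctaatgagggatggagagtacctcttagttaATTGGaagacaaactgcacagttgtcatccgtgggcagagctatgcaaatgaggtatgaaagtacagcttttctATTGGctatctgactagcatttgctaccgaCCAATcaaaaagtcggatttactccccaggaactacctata

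The member promoters were short and rich in CpG. The starts lay a median of 133 bp apart (interquartile range 70 to 252 bp, range 1 to 995 bp). The shortest stretch printed, SIRT3-PSMD13, is 34 bp long with 88.2% GC, and the longest, PCNA-CDS2, is 252 bp with 4 GC boxes and 3 CCAAT boxes. In the 300 bp centred between the starts, the members had a median GC content of 65.0% and a median ratio of observed to expected CpG of 0.890. That ratio was 0.865 in the same window around single promoters with a peak, 0.786 at the 160 pairs without a peak, and 0.373 at single promoters without a peak. The histone pair H2BC4-H2AC6 stands apart from the rest of the printed set with 41.7% GC, a ratio of 0.425 and 3 CCAAT boxes.

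The ETS and NRF1 cores were more frequent at members than at single promoters. The ETS core CCGGAAG was present in 208 members (28.6%), in 16.4% of single promoters with a peak and in 10.9% of all 17442 promoters. For NRF1 the shares were 9.90, 4.68 and 3.29%. CCAAT was present in 40.0% of members, 31.8% of single promoters with a peak and 33.8% of all promoters. The GC box was as common at members (73.7%) as at single promoters with a peak (73.1%), against 52.8% of all promoters. Fewer members (4.68%) than promoters in general (9.82%) held a TATA box. The shares for the other cores, over members, single promoters with a peak and all promoters, were 6.33, 5.23 and 3.39% for YY1, 3.99, 2.95 and 2.08% for CRE, 2.75, 1.79 and 1.07% for CTCGCGAG, 3.99, 2.67 and 1.84% for E2F, and 2.48, 3.78 and 6.18% for AP-1. Windows were centred between the starts at pairs and on the start at single promoters, so the sets do not sample the same distance from a start.

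Whether divergent promoters were more often acetylated was asked over all annotated promoters. Of the 887 pairs, 696 (78.5%, 75.6 to 81.1) and 698 (78.7%, 75.9 to 81.3) were called in DMSO replicates 1 and 2, and 673 (75.9%, 73.0 to 78.6) and 658 (74.2%, 71.2 to 77.0) in I-BET151 replicates 1 and 2, a call being at least 1 bp of a peak within 1 kb of either start. Of the single promoters, 39.8, 40.9, 38.9 and 38.2% were called in the same libraries. The gap of 38.3 ± 0.61 percentage points in DMSO and 36.5 ± 0.71 in I-BET151 (SD, n = 2) was present in all 4 libraries. Within 5 classes of the CpG ratio the mean gap over the libraries was 19.5 points in place of 37.4. A pair also offers a peak more ground than a single start, up to 3 kb against 2 kb, which was not adjusted for. Of the members, 627 (86.2%) were called in all 4 libraries, against 81.0% of the single promoters with a peak.

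Peak coverage was highest beside the starts and lower between them. At the midpoint between the starts, 45.7 and 43.5% of members were covered by a peak in DMSO replicates 1 and 2, and 38.9 and 35.9% in I-BET151 replicates 1 and 2. Coverage reached a first maximum 275 to 325 bp into the minus-strand side, at 62.7 and 63.3% in DMSO and 58.9 and 56.8% in I-BET151. The second maximum, 250 to 275 bp to the plus-strand side, was at 59.6, 59.0, 55.9 and 52.4% in the same order. Single promoters had 1 maximum, 250 to 275 bp into the gene, at 73.4 to 78.2%, and only 14.4 to 16.3% of them were covered 500 bp upstream of the start, where members had 41.0 to 48.7%. Of the bases between the starts of members, 40.4 and 38.6% lay in a peak in DMSO and 35.5 and 31.9% in I-BET151.

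**Figure D1:**
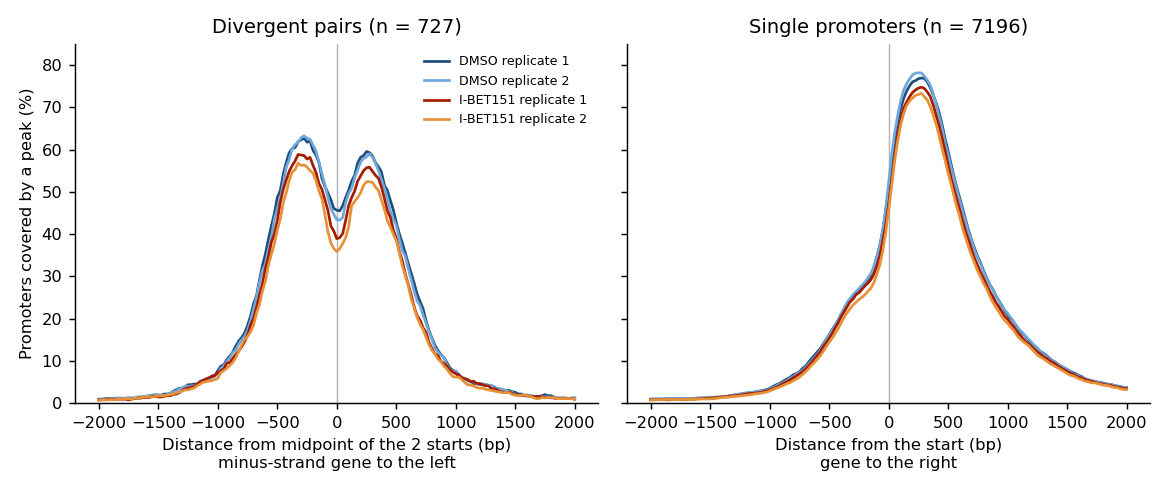
Share of promoters covered by an H3K27ac peak (y axis, percent) at each distance from the midpoint between the starts of 727 divergent pairs (left) or from the start of 7196 single promoters (right), in bp on the x axis, with 1 line per library. Divergent pairs have 2 maxima around a dip at 35.9 to 45.7% at the midpoint, single promoters have 1 maximum inside the gene, and both I-BET151 lines lie below both DMSO lines at the midpoint and maxima.

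How many peaks made up a divergent promoter varied with the distance between the starts. Over all called pairs, 1 peak spanned both starts in 39.2 and 37.2% in DMSO and in 34.9 and 33.3% in I-BET151. That share was 68.9 to 73.8% where the starts were up to 50 bp apart, 44.2 to 53.5% at 51 to 100 bp, 21.6 to 28.6% at 101 to 200 bp and 12.5 to 15% beyond 500 bp. At the same time the share of pairs with at least 2 peaks went from 11.2 to 12% in the closest class to 30.9 to 42.4% in the widest. In all, 21.7 to 23.9% of called pairs had at least 2 peaks, against 11.3 to 12.3% of called single promoters. Peaks were counted to 1 kb beyond either start, so the window at pairs was longer than at single promoters and grew with the distance. This was not adjusted for, and in the closest class, where the windows were nearly equal, the share of 11.2 to 12% was close to that of single promoters. No peak touched either start in 31.9 and 31.4% of called pairs in DMSO and in 36.6 and 38.6% in I-BET151. The strongest summit fell between the starts in only 3.87 to 5.50% of called pairs, and lay a median of 313 to 323.5 bp from the midpoint.

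**Figure D2:**
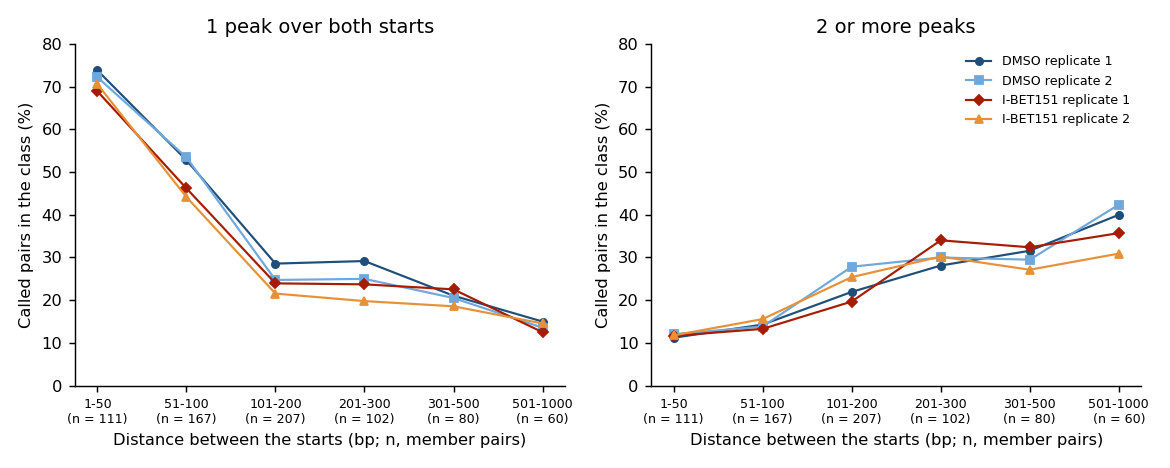
Share of called divergent pairs (y axis, percent) with 1 peak over both starts (left) and with 2 or more peaks (right), by distance between the starts (x axis, 6 classes in bp with the number of member pairs) and library. The first share goes from 68.9 to 73.8% in the closest class down to 12.5 to 15% in the widest, and the second goes up.

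Most pairs had more covered length on one side, and on the same side in every library. Among the 627 pairs called in all 4 libraries, the same gene had more covered bases in its first 1 kb in all 4 libraries for 557 (88.8%), the minus-strand gene in 308 and the plus-strand gene in 249. Peaks reached into both genes in all 4 libraries at 297 members (47.4% of the 627), into the minus-strand gene alone at 114 and into the plus-strand gene alone at 92. Coverage on both sides was not particular to pairs. Of single promoters called in all 4 libraries, 51.1% were covered both in the 1 kb upstream and in the first 1 kb of the gene. At single promoters these stretches meet at the start. The mean length covered in the first 1 kb of the minus-strand gene was 361 ± 4.0 bp with DMSO and 326 ± 13 bp in I-BET151, and in that of the plus-strand gene 336 ± 5.5 and 301 ± 11 bp (SD, n = 2). A single promoter had 536 ± 1.9 and 503 ± 11 bp in its first 1 kb and 183 ± 0.20 and 168 ± 8.2 bp in the 1 kb upstream. On average each gene of a pair had less covered length in its own first 1 kb than a single gene, and more on the opposite side. A pair was kept when either start had a peak within 1 kb, a single promoter only when its own start had one. This favours a lower mean per gene at pairs and was not adjusted for.

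Covered length within 2 kb of the midpoint was the measure used to compare the treatments. It averaged 822 and 805 bp per member in DMSO replicates 1 and 2, and 748 and 706 bp in I-BET151 replicates 1 and 2. The groups did not overlap, at 813 ± 13 bp against 727 ± 30 bp (SD, n = 2), a difference of −86.1 bp. The two-sided exact permutation test gave p = 0.33, the smallest value that 4 libraries allow, so no difference between these groups can pass 0.05. The number of members called was lower by 31.5 (697 ± 1.4 against 665.5 ± 11, exact p = 0.33). As a share of members this was 95.9% in DMSO and 91.5% in I-BET151, a difference of −4.33 percentage points. Single promoters with a peak had a similar drop, from 92.7% to 88.75% called, a difference of −3.96 points. With equally long lists, made from the top-ranked peaks of each library, the difference in called members was −8.0, and that in covered length −65.8 bp.

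Single promoters were also narrower in I-BET151, by 58.0 bp (829 ± 1.8 against 771 ± 23 bp, exact p = 0.33). The decrease at divergent pairs was 28.0 bp larger, again at the smallest attainable exact p of 0.33. It was 33.2 and 22.9 bp larger in the same-numbered comparisons and 17.9 to 38.2 bp larger without 1 library at a time. The groups did not overlap in this measure, so neither of these could change its direction. With other gaps, windows, peak lists, starts, chromosomes or comparison sets, the difference between the decreases was −22.05 to −35.7 bp. The level itself gave no stable order. Members had on average 30.0 bp less than single promoters, but 22.0 bp more in a window of 1 kb to either side, and 4.54 bp more with the starts of Ensembl canonical transcripts. Single promoters with a noncoding start on the opposite strand within 1 kb (n = 1744) had 913 ± 2.5 bp with DMSO and 868 ± 30 bp in I-BET151. Those without one (n = 5452) had 803 ± 3.2 and 741 ± 20 bp, and against these the members differed by −1.20 bp on average.

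**Figure D3:**
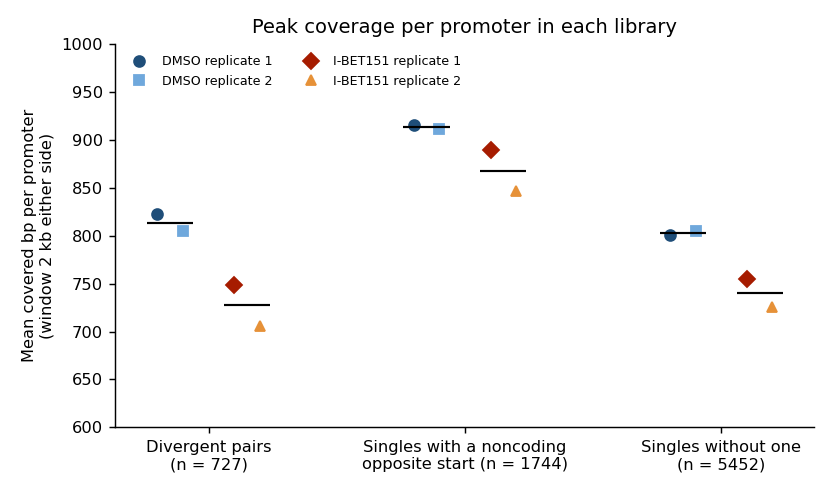
Mean length covered by H3K27ac peaks within 2 kb of the midpoint or start (y axis, bp, starting at 600) for divergent pairs and for single promoters with and without a noncoding start on the opposite strand, with 1 point per library and a line at each group mean (n = 2). In all 3 sets both I-BET151 points lie below both DMSO points.

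Summit heights overlapped between the groups. Among the 596 pairs called in all 4 libraries whose summit reads could be worked out, the median summit held 30.5 and 28.2 ChIP reads per M of depth in DMSO and 26.8 and 28.2 in I-BET151. These groups met at 28.2, with a difference of −1.84 (exact p = 0.67). The median summit of single promoters held 32.0, 29.4, 28.4 and 30.6 reads per M in the same order, and was higher than that of the pairs in each library. The fold enrichment given by the authors was a median of 6.33 and 7.09 at members in DMSO and 6.92 and 6.94 in I-BET151.

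Changes at single pairs were counted where both I-BET151 libraries lay beyond both DMSO libraries. Covered length was lower in both I-BET151 libraries at 283 members (38.9%, interval 35.45 to 42.52), where the background over all 7923 divergent and single promoters with a peak was 35.4%. It was higher in both at 60 members (8.25%, interval 6.47 to 10.5), where the background was 15.2% and single promoters reached 16.0%. Members with a peak in each DMSO list and in no I-BET151 list, termed lost, numbered 24 (3.30%, 2.23 to 4.87, background 4.44%). Only 4 members were gained, with a peak in each I-BET151 list and in no DMSO list (0.550%, 0.214 to 1.41, background 1.88%). The share of lost pairs was thus near the background and that of narrower pairs slightly above it, while those of wider and gained pairs were below it. The intervals cover counting error only, and promoters are not replicates. Without 1 library at a time the wider pairs numbered 156 and 93 (DMSO replicates 1 and 2) or 100 and 180 (I-BET151 replicates 1 and 2), and the narrower ones 347, 439, 449 and 332. Leaving out a library makes non-overlap easier to reach.

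**Figure D4:**
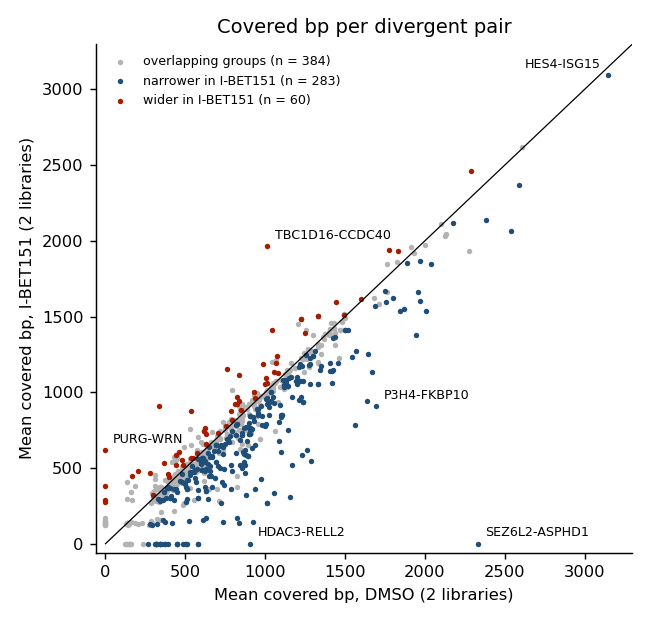
Mean covered length of each of the 727 divergent pairs in DMSO (x axis, bp) and I-BET151 (y axis, bp), each the mean of 2 libraries, with the line of equality. Of the pairs, 283 were lower in both I-BET151 libraries, 60 were higher in both, and 384 overlapped between the groups.

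The largest loss was at SEZ6L2-ASPHD1 on chromosome 16, which joins SEZ6L2, a neuronal membrane protein gene, and ASPHD1 with starts 825 bp apart. Its peaks covered 2374 and 2291 bp with DMSO and 0 and 0 bp in I-BET151. In a window of 1 kb the difference at SEZ6L2-ASPHD1 was −1392.5 bp in place of −2332 bp. HDAC3-RELL2, whose first gene encodes the catalytic histone deacetylase of the NCoR corepressor complex, went from 595 and 1221 bp to 0 and 0 bp. The DMSO libraries differed widely from each other there, yet both I-BET151 lists held no peak at HDAC3-RELL2. The stretch of 100 bp, printed above, held none of the 10 motifs. GGN-SPRED3, with SPRED3 an inhibitor of Ras-MAPK signalling, went from 500 and 524 bp to 0 and 0 bp. TMEM276-KIFC2 had 607 and 548 bp with DMSO and 0 and 0 bp in I-BET151, and the pair ENSG00000291316-KIFC2 repeats these values because it uses the same promoter of the kinesin gene KIFC2. A pair at 0 bp had no peak past the threshold, which does not mean that acetylation was absent.

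Other pairs kept a peak in at least 1 I-BET151 library, with less width. P3H4-FKBP10 joins a pair of genes for proteins of the endoplasmic reticulum that take part in collagen modification and folding. It went from 1686 and 1708 bp in DMSO to 886 and 931 bp in I-BET151, a difference of −788.5 bp. SBF2-ADM, with ADM encoding the peptide hormone adrenomedullin, went from 1588 and 1539 bp to 865 and 704 bp. In both pairs all 4 libraries held a peak. The replicates lay far closer to each other than to the other group, which choosing the largest falls without overlap between groups favours. P3H4-FKBP10, SBF2-ADM and EPS8-STRAP were members by outermost gene starts only, not by canonical starts. KCTD21-USP35, with USP35 a deubiquitinase gene, had 927 and 1389 bp with DMSO and 326 and 285 bp in I-BET151. EPS8-STRAP, with EPS8 encoding a regulator of actin downstream of the EGF receptor, had 911 and 937 bp with DMSO, no peak in I-BET151 replicate 1 and 283 bp in replicate 2. The difference at SBF2-ADM went from −779 bp to −1603 bp in a window of 5 kb, and that at EPS8-STRAP from −782.5 bp to −327 bp with equally long lists.

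In some pairs the peak was lost from 1 gene alone. Peaks covered part of both genes in both DMSO libraries, and the same single gene in both I-BET151 libraries, at 17 members (2.34%, background 2.39%). The reverse was seen at 3 members (background 0.808%). At SBF2-ADM the first 1 kb of ADM had 481 and 442 bp covered in DMSO, and 0 and 0 bp with I-BET151, while that of SBF2 had 480 and 467 bp and then 336 and 409 bp. At KCTD21-USP35 it was KCTD21 that went from 524 and 612 bp to 0 and 0 bp, while USP35 had 403 and 755 bp and then 326 and 285 bp. ZZEF1-CYB5D2 lost all of 597 and 610 bp at ZZEF1, a gene for a large zinc-finger and EF-hand protein, with 610 and 614 bp at CYB5D2 in DMSO, and 609 and 558 bp with I-BET151. The last pair was chosen after its values were seen, as an example with nearly equal sides.

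**Figure D5:**
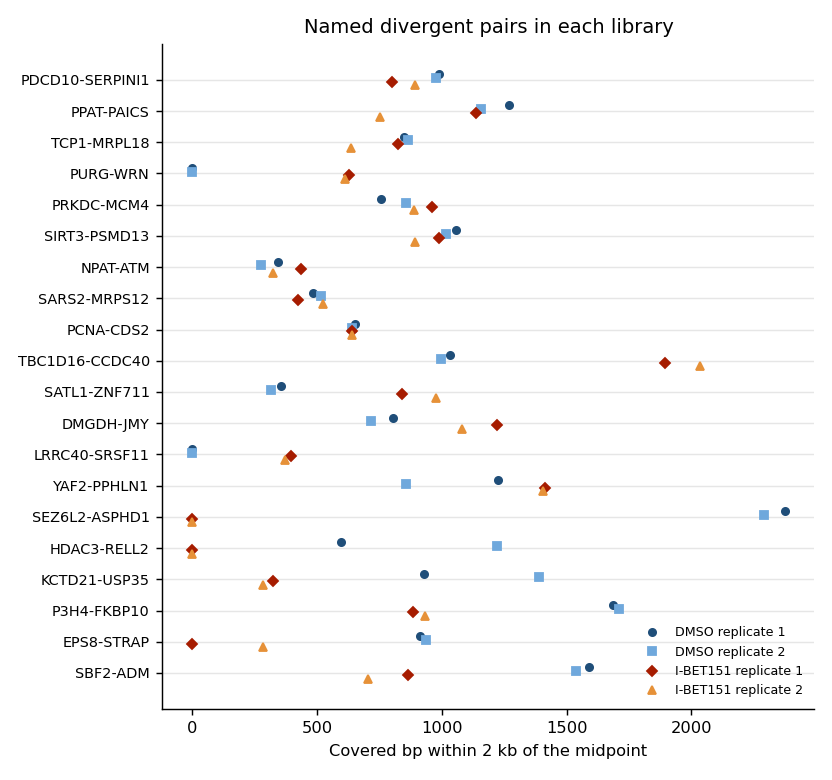
Covered length within 2 kb of the midpoint (x axis, bp) in each of the 4 libraries for 9 well-known divergent pairs and for the pairs with the 6 largest rises and 6 largest falls. The well-known pairs other than PURG-WRN keep peaks in all libraries, while SEZ6L2-ASPHD1 and HDAC3-RELL2 go to 0 bp in both I-BET151 libraries.

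The largest rise was at TBC1D16-CCDC40, which joins a gene for a Rab GTPase-activating protein to a gene needed for motile cilia. Its peaks covered 1033 and 996 bp with DMSO and 1894 and 2033 bp in I-BET151, a difference of 949 bp. The rise lay on the side of CCDC40, whose first 1 kb had 0 and 0 bp with DMSO and 781 and 669 bp in I-BET151, while that of TBC1D16 had 562 and 520 bp and then 493 and 605 bp. SATL1-ZNF711, with the zinc-finger transcription factor gene ZNF711 on chromosome X, went from 356 and 316 bp to 842 and 978 bp. DMGDH-JMY, with JMY a cofactor of p300 and actin nucleator, went from 806 and 718 bp to 1222 and 1083 bp. The difference at DMGDH-JMY, 390.5 bp, was 185 bp in a window of 1 kb and 749.5 bp with equally long lists. At all 3 pairs the replicates were closer to each other than to the other group, which choosing the largest rises without overlap between groups favours. DMGDH-JMY and YAF2-PPHLN1 were members by outermost gene starts only, not by canonical starts. YAF2-PPHLN1, with YAF2 a subunit of variant Polycomb complexes, had 1224 and 855 bp with DMSO and 1414 and 1404 bp in I-BET151, so that one DMSO library lay near the treated ones.

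All 4 gained pairs were narrower in I-BET151 than the average member. PURG-WRN, with the RecQ helicase gene WRN, had 0 and 0 bp with DMSO and 627 and 611 bp in I-BET151. LRRC40-SRSF11, with SRSF11 a splicing factor gene, had 0 and 0 bp and then 395 and 372 bp, and its printed stretch of 102 bp held none of the 10 motifs. ADAT2-PEX3, with a tRNA deaminase subunit and a peroxisome biogenesis factor, had 0 and 0 bp and then 304 and 274 bp. XRRA1-SPCS2, with a signal peptidase subunit, had 0 and 0 bp and then 275 and 272 bp. With a −log10 q of at least 5 or with equally long lists, XRRA1-SPCS2 kept its peak in 1 of the I-BET151 libraries and was no longer gained (mean difference 136 bp in place of 273.5 bp). The values of ADAT2-PEX3 and XRRA1-SPCS2 are close to the shortest peak in the lists, which was 247 to 272 bp, that is 1 narrow peak each.

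The pairs with the most covered length kept peaks of over 2 kb in all 4 libraries. HES4-ISG15, which joins a bHLH repressor gene of the HES family to a gene for a ubiquitin-like modifier, had 3128 and 3170 bp with DMSO and 3081 and 3113 bp in I-BET151. HCFC1-TMEM187, with the gene for host cell factor, had 2635 and 2579 bp and then 2633 and 2601 bp. POLR2L-TSPAN4, with the gene for a small subunit shared by the RNA polymerases, had 2585 and 2592 bp and then 2421 and 2317 bp. The groups overlapped at HCFC1-TMEM187 only, and the differences were −52.0 bp at HES4-ISG15 and −219.5 bp at POLR2L-TSPAN4. At HES4-ISG15 the difference was 0 bp in a window of 1 kb to either side and −195.5 bp in one of 5 kb, and at POLR2L-TSPAN4 it was −137 bp in the former.

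Of 21 well-known divergent pairs that were listed, 10 were members by outermost gene starts, of which 9 are described here. PCNA-CDS2, with the gene for the sliding clamp of DNA replication, had 654 and 640 bp with DMSO and 639 and 639 bp in I-BET151, nearly the same length in all libraries. PPAT-PAICS, which joins genes for enzymes of purine synthesis, had 1271 and 1156 bp and then 1138 and 754 bp. The groups did not overlap at PCNA-CDS2 or PPAT-PAICS, where both I-BET151 libraries were lower. SIRT3-PSMD13, with a mitochondrial deacetylase and a proteasome subunit, had 1059 and 1015 bp and then 987 and 893 bp. TCP1-MRPL18, with a chaperonin subunit and a mitochondrial ribosomal protein, had 848 and 863 bp and then 826 and 636 bp. PDCD10-SERPINI1, with SERPINI1 the gene for neuroserpin, had 987 and 978 bp and then 800 and 892 bp. In these 3 pairs both I-BET151 libraries were lower. PRKDC-MCM4, with the DNA-dependent protein kinase and a subunit of the replicative helicase, went the other way, from 758 and 858 bp to 962 and 888 bp (a difference of 117 bp, or 295.5 bp with equally long lists). At NPAT-ATM, with a regulator of histone transcription and the DNA damage kinase ATM, 344 and 275 bp stood against 437 and 325 bp. SARS2-MRPS12, with a mitochondrial tRNA synthetase and a mitochondrial ribosomal protein, had 483 and 518 bp and then 424 and 525 bp. The last 2 pairs overlapped between the groups.

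Of the other listed pairs, 7 were members only when the starts of canonical transcripts were used, since their outermost gene ends did not meet the rule. HSPD1-HSPE1, the mitochondrial chaperonin and its cochaperonin, then had 1900 and 1897 bp with DMSO and 1938 and 1901 bp in I-BET151. COL4A1-COL4A2, the basement membrane collagen genes, had 2114 and 2046 bp and then 1943 and 1739 bp. SURF1-SURF2, with a cytochrome oxidase assembly factor, had 754 and 940 bp and then 336 and 332 bp. Both I-BET151 libraries were thus lower at the last 2 pairs and higher at HSPD1-HSPE1. By outermost starts, COL4A3 and COL4A4 and likewise COL4A5 and COL4A6 formed annotated pairs without a peak.

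Gene groups with many divergent promoters were described by lists. Of 125 DNA replication and repair genes, 38 (30.4%) lay in annotated pairs, against 8.55% of all protein-coding genes, and 31 lay in 30 member pairs. The median change of these 30 pairs was 3.5 bp, against a median of −44.5 bp over all members. In the list 4 pairs were wider and 4 narrower, against 8.25% and 38.9% of all members and a background of 15.2% and 35.4%. The 4 wider ones were PURG-WRN, PRKDC-MCM4, LIPT2-POLD3 with a subunit of DNA polymerase delta (571 and 573 bp with DMSO, 585 and 615 bp in I-BET151), and PALB2-DCTN5 with the partner of BRCA2 (419 and 372 bp, then 456 and 423 bp). The largest decrease in the list was at ABHD12-GINS1, with a subunit of the replicative helicase complex, from 1568 and 1520 bp to 1126 and 1338 bp. A peak in all 4 libraries was present at 23 of the 30 pairs.

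Replication-dependent histone genes were the group with the highest share in annotated pairs among the large lists, at 27 of 69 genes (39.1%), and 10 pairs were members. Their peaks were narrow, with medians of 302.5 and 266 bp with DMSO and 0 and 124.5 bp in I-BET151, near the shortest peak of the lists. A peak in all 4 libraries was present at 4 of the 10 pairs, against 86.2% of all members. In the list 3 pairs were lost (3.30% of all members), and these were also the 3 narrower ones (38.9%), while 1 was wider (8.25%). H2BC4-H2AC6, whose stretch with 3 CCAAT boxes is printed above, had 284 and 247 bp with DMSO and 0 and 0 bp in I-BET151. H3C12-H2BC17 and H2AC17-H2BC17 share a promoter and had 304 and 330 bp and then 0 and 0 bp. H2AC25-H2BC26 was the wider one, at 279 and 276 bp with DMSO and 307 and 632 bp in I-BET151. Histone genes are close copies of each other, and how surely reads were assigned among them was not tested.

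Pairs with genes of mitochondrial function and protein synthesis had median changes below 0, and a minority of each list was narrower in both I-BET151 libraries, apart from 3 of 5 pairs of mitochondrial import. The same held over all members, with a median change of −44.5 bp, 38.9% narrower and 8.25% wider. The background over all promoters with a peak was 35.4% narrower and 15.2% wider, and the lists are too small to be set apart from it. For 15 pairs with a mitochondrial ribosomal protein the median change was −50.5 bp, with 5 narrower and 1 wider, and all 15 were called in every library. For 17 pairs with an oxidative phosphorylation subunit it was −90.0 bp, with 6 narrower and 0 wider. For 9 pairs with a cytosolic ribosomal protein it was −64.5 bp, with 4 narrower and 0 wider. The largest decrease in the latter list was at RPL12-LRSAM1, from 1232 and 1292 bp in DMSO to 474 and 768 bp with I-BET151. The 6 proteasome pairs had a median change of −44.2 bp with 2 narrower and 1 wider, and the 5 pairs of mitochondrial import −47.0 bp with 3 narrower. Of the latter, ARFIP2-TIMM10B had 1089 and 929 bp with DMSO and 0 and 539 bp with I-BET151. The 2 pairs with a tRNA synthetase changed by a median of −4.25 bp, neither of them beyond the overlap of the groups.

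The decrease with I-BET151 was present at each distance between the starts. It was smallest in the closest class (−58.3 bp) and largest beyond 500 bp (−153 bp), where the DMSO mean was 1160 bp against 759 bp in the closest class. The classes between did not rise steadily, at −75.2, −95.8, −64.85 and −99.3 bp in order of distance. Between 32.4 and 48.8% of the pairs in a class were narrower and between 5.0 and 10.8% were wider. By CpG ratio, the narrower share was 43.5, 46.2, 41.8, 32.4 and 33.7% from the lowest to the highest of 5 classes, against 37.4, 36.5, 34.6, 31.8 and 34.7% at single promoters. By motif, it was 41.8% with and 37.8% without the ETS core. Among the 29 members with a CRE, 20.7% were wider and 48.3% narrower, against 7.74% and 38.5% of those without. Among the 20 with CTCGCGAG, 25% were wider and as many narrower, against 7.78% and 39.3%. These last shares rest on a handful of pairs.

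Pairs on either side of the rule's limits are given by their covered length. PSMB1-TBP, with a proteasome subunit and the TATA-binding protein, had the widest gap of the members (995 bp) and 1009 and 887 bp with DMSO and 1016 and 677 bp in I-BET151. TXNDC12-BTF3L4, outside the limit at 1008 bp, had 536 and 766 bp and then 911 and 795 bp. GPBP1L1-TMEM69 was the member whose nearest peak was farthest away (915 bp), with 1017 and 1052 bp and then 1026 and 1028 bp. HRAS-LRRC56, left out because its nearest peak was 1002 bp away, had 690 and 896 bp and then 721 and 664 bp. Most members (75.5%) had a peak over the stretch between the starts, ends included, and the other 24.5% only beside it.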

How the data were processed

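H3K27ac ChIP-seq of PPs (2 DMSO and 2 I-BET151 libraries, grouped by title) was analysed from the deposited peak lists. The authors, by their methods, aligned reads to hg38 with Bowtie2 2.2.5, removed duplicates and mitochondrial reads, and called peaks with MACS2 2.1.2 at default settings. Each library has its own deposited list, and the fold and p-values resolve against an input background. The deposited values per peak are a fold enrichment at the summit (a ratio with a pseudocount of 1), −log10 p-value and q-value, and the summit's offset. The deposited score repeats 10 times −log10 q and was not used. A fixed q threshold leaves weaker acetylation out of shallower lists, so width and presence depend on depth. Tools were Python 3.11.15, pandas 2.3.3, numpy 2.4.6 and scipy 1.17.1. Coordinates are 1-based.

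Promoters came from GENCODE release 44 (hg38), with 20033 protein-coding genes. A library was called at a promoter where a peak shared at least 1 bp with the start extended by 1 kb, and covered length was summed within 2 kb. ChIP reads and input levels were worked out from fold and p-value, for a genome of 2700000000 bp. At least 1 solution in whole reads within a tolerance of 0.002 was found for 100% of peaks, and exactly 1 for 98.0 to 99.0%. Coverage, pairing and read recovery were tested on simulated data. Group differences were tested by two-sided exact permutation over the 6 assignments of 4 libraries. Shares carry Wilson 95% intervals. Named pairs were the listed well-known pairs, the 6 largest rises and falls among pairs without overlap between groups, gained pairs and the 5 widest lost pairs, the 3 widest, and the pairs at the limits of the rule. One well-known pair is not reported here. Members and lists were chosen with earlier results of these data known. Alternatives changed the gap, window, q threshold, list length, starts, single promoters, overlapping pairs, calling length, CpG classes, chromosomes and libraries.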

Additional observations from a re-analysis of the deposited data

Results flagged for a closer look

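The input signal under divergent promoters stood above the genome-wide input level in every library, although the inputs were not part of the comparisons. At the strongest summit of each called member the median local input level was 42.4 and 38.2 times the genome-wide level in DMSO replicates 1 and 2, and 38.5 and 40.7 times in I-BET151 replicates 1 and 2. At single promoters it was 50.6, 44.8, 42.0 and 44.7 times in the same order. The local level is the largest that MACS2 takes from windows around the summit. Its part in the fold values and in which pairs were called was not tested.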

How the results depend on the processing

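The lower number of called pairs, the lower covered length and the larger decrease at divergent than at single promoters kept their direction in all alternatives run. Leaving out 1 library or using the replicate block could not change it, because the groups did not overlap in these measures. Covered length of pairs minus single promoters (−30.0 bp) changed sign with a window of 1 kb (22.0 bp) and with canonical starts (4.54 bp). It moved to −58.2 bp with gaps of at most 500 bp, to −54.8 bp with a window of 5 kb and to −1.20 bp against single promoters without an opposite start of any biotype. The difference in the share called (37.4 points) moved to 38.9 with canonical starts, 42.0 against those single promoters and 19.5 within CpG classes. Leaving out 1 library, the gained pairs numbered 7 to 11 (4 with all), the lost 28 to 44 (24), the wider 93 to 180 (60) and the narrower 332 to 449 (283), by construction more. The cause of the other shifts was not tested. Same-numbered libraries deviated together only weakly (correlation of their deviations 0.151 over 2 groups of 2), and the labels do not say whether they share a culture, so they were not treated as pairs. With the replicate block, that is both same-numbered differences of 1 sign, 105 pairs were wider and 379 narrower. Of 360 values recomputed at 29 named pairs, 346 stayed within the larger replicate SD and 14 moved beyond it. The report gives those of the 14 that changed by over 1.5 times. Leaving out 1 library cannot shift the mean of 2 by more than their SD. The gap, autosome, overlapping-pair and replicate-block settings leave a kept pair's value unchanged, so values under these settings could not move. Among pairs without overlap between groups, 0 reversed in sign. Sign changes at overlapping pairs were not counted, such as SARS2-MRPS12 (−26 bp to 24.5 bp without I-BET151 replicate 1) and HCFC1-TMEM187 (10 bp to −18 bp without DMSO replicate 2). With canonical starts, P3H4-FKBP10, SBF2-ADM, EPS8-STRAP, DMGDH-JMY, YAF2-PPHLN1, LRRC40-SRSF11, HES4-ISG15, PCNA-CDS2 and ENSG00000291316-KIFC2 were not members and had no value. Depth limits the lists, and pairs near the threshold can change without a change in acetylation.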
